A study of Homo sapiens with 8 samples.

Results

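The comparison described here is the difference of differences between 4 groups of HS578T libraries: the change with TGF-β1 in cells overexpressing HSF2 minus the change with TGF-β1 in Mock cells. All 8 libraries of the study enter it, 2 per group. HS578T is an established breast carcinoma line with mesenchymal features. Mock cells carried a plasmid for GFP and HSF2oe cells a plasmid for exogenous HSF2, each at 25 µg of DNA, and 24 h after transfection the cells received medium with low serum alone or with 10 ng/ml TGF-β1 for a further 24 h. The transfections were transient, and the share of cells that took up the plasmid was not given in the sources used here. One label field names a single treatment for all Mock libraries and another for all HSF2oe libraries, which contradicts the sample titles and the design text, so groups follow the titles. The libraries are described as biological replicates, with nothing said of separate days or passages.

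TGF-β1 binds a pair of serine/threonine kinase receptors that phosphorylate SMAD proteins, which then enter the nucleus and switch on genes for matrix, proteases, inhibitors of proteases and feedback regulators. In many epithelial cells the same signal slows the cell cycle before DNA replication starts. HSF2 is a heat shock factor, a transcription factor that binds heat shock elements in the promoters of chaperone and other genes. A positive value below means that the log2 response to TGF-β1 was higher in HSF2oe than in Mock cells, and a negative value that it was lower. For a gene that TGF-β1 lowers, a positive value therefore is a smaller fall.

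The libraries held between 17427645 and 34336107 read pairs assigned to genes and the Mock TGF-β1 libraries held 17427645 and 23726768. HSF2 stood at 8.36 and 6.44 CPM (read pairs per 1000000 counted, scaled by edgeR's trimmed mean of M values) in the Mock control libraries and at 5.4 and 5.76 CPM in the Mock TGF-β1 libraries. It reached 937 and 616 CPM in HSF2oe control cells and 780 and 489 CPM in HSF2oe cells with TGF-β1, so all 4 libraries labelled HSF2oe lay far above all 4 Mock libraries. These reads may come from the plasmid or from the cell's own gene, which the counts do not separate. The difference of responses for HSF2 itself was 0.10 ± 0.35 (SE), HSF2oe exceeding Mock by 6.72 on the log2 scale without TGF-β1 and by 6.83 with it. All 14 mesenchymal markers checked were measured, with a summed level of 23900 to 74600 CPM. The 18 luminal epithelial markers summed to 463 to 797 CPM, and 11 of them never reached 1 CPM. Among the luminal markers, XBP1 stood at 226 to 476 CPM and KRT18 at 177 to 275 CPM. The 16 blood or endothelial markers summed to 6.44 to 13.9 CPM, and 12 of them never reached 1 CPM. In bulk RNA, fewer cells of a kind and less RNA per cell cannot be told apart.

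No gene passed an adjusted p of 0.05 for the difference of responses in edgeR's quasi-likelihood test, 0% of the 16008 genes tested. At an unadjusted p under 0.05 there were 977 genes, 6.1% of those tested, with 473 positive (2.95%) and 504 negative (3.15%). DESeq2's Wald test on the same counts called 23 genes and limma-trend on the deposited log2 values called 0. Without a filter on low counts edgeR called 83. The gene-level values that follow are therefore differences that did not pass in the main test, and they are given with their errors. In the main test the median SE of a gene's difference was 0.937 on the log2 scale for genes under 1 CPM, and 0.162 for genes between 4 and 6 in mean log2 CPM.

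The separate responses did yield many calls. TGF-β1 changed 2212 genes in Mock cells (13.8% of those tested, 1172 higher and 1040 lower) and 1323 genes in HSF2oe cells (8.26%, 712 higher and 611 lower). Of these, 1010 were called in both backgrounds in the same direction and 0 in opposite directions, while 1202 were called in Mock cells alone and 313 in HSF2oe cells alone. A gene called in 1 background alone is not thereby shown to respond differently, since the difference itself did not pass for any of them. HSF2oe differed from Mock at 1937 genes in control medium (12.1%), with 781 higher (4.88%) and 1156 lower (7.22%), and at 3449 genes with TGF-β1 (21.5%), with 1537 higher (9.6%) and 1912 lower (11.9%).

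To ask which way the responses leaned, genes were taken as TGF-β1-responsive by the response averaged over both backgrounds. This contrast is orthogonal to the difference in this balanced design. It favours neither background only where both responses vary alike, which was not tested. The choice gave 3228 genes (20.2%), with 1624 higher (10.1%) and 1604 lower (10%). The response was smaller in HSF2oe cells for 2183 of them (67.6%) and larger for 1045. Among genes that were not responsive, 54.8% had the smaller response in HSF2oe cells, and among all genes tested 57.4%. The share of all genes was 58% to 61.7% when a Mock library was left out. It was 49.7% to 54.7% when an HSF2oe library was left out. For the responsive genes the median response in the gene's own direction was 0.56 in Mock cells and 0.44 in HSF2oe cells on the log2 scale. Genes raised by TGF-β1 and genes lowered by it leaned alike, with 1111 of 1624 and 1072 of 1604 smaller in HSF2oe cells. Over both directions together the lean did not grow with the size of the response: 68.1% of genes with an averaged change under 0.5, 67.6% of those between 0.5 and 1, and 66.1% of those at 1 or more had the smaller response in HSF2oe cells. At 1 or more the directions parted, with 210 of 298 raised genes (70.5%) and 163 of 266 lowered genes (61.3%) smaller in HSF2oe cells. Of the 3228 genes, 8 had the opposite sign in HSF2oe cells and 0 had it in Mock cells. The share moved with the libraries used, falling to 56.1% without the first HSF2oe TGF-β1 library, where all genes together stood at 49.7%, and rising to 73.1% without the first Mock TGF-β1 library, where all genes stood at 61.7%.

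**Figure D1:**
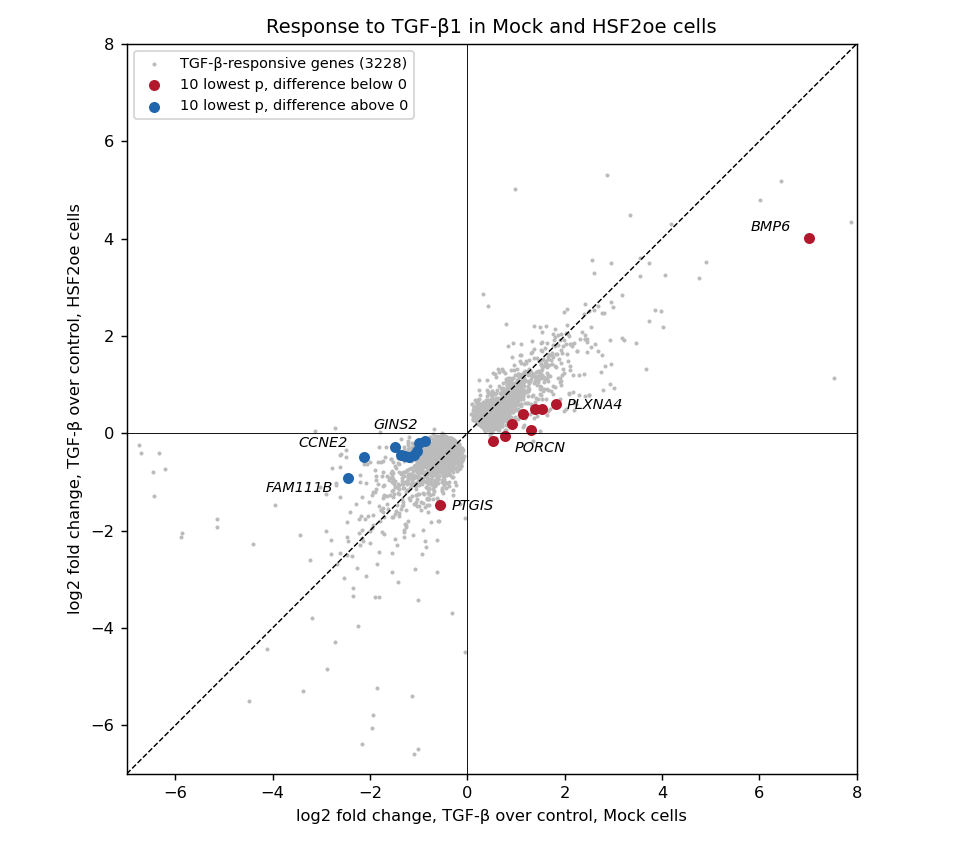
Response to TGF-β1 (log2 fold change, TGF-β1 over control) in Mock cells on the horizontal axis and in HSF2oe cells on the vertical axis for the 3228 responsive genes (grey), with the 10 genes of lowest p in each direction of the difference in colour. Points between the dashed line of equal response and the horizontal axis had a smaller response in HSF2oe cells. The response was smaller in size for 19 of the 20 coloured genes. Among those 19, the genes with a negative difference that lie below the horizontal axis are PORCN (-0.05 in HSF2oe cells) and PKD1 (-0.15). PTGIS lies below the dashed line on the side of a larger fall.

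The smallest p among positive differences belonged to GINS2, a subunit of the GINS complex that works with the MCM ring as the replicative helicase. GINS2 stood at 39.1 and 30.8 CPM in Mock control libraries and at 13.9 and 11.1 CPM in Mock TGF-β1 libraries. In HSF2oe cells it stood at 38.3 and 38.5 CPM without TGF-β1 and at 32.2 and 30.7 CPM with it. The Mock TGF-β1 libraries were thus the only low ones, and they did not overlap any other group. GINS2 fell by 1.49 ± 0.14 on the log2 scale in Mock cells (adjusted p = 1.81e-05), while its change in HSF2oe cells was -0.29 ± 0.13 (adjusted p = 0.227). The difference was 1.20 ± 0.19 (adjusted p = 0.165, edgeR's quasi-likelihood test).

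Other genes of the replication machinery had the same layout. GINS1, a second GINS subunit, had 32.9 and 28.5 CPM in Mock control cells, 13.4 and 10.6 CPM in Mock cells with TGF-β1, 29.5 and 31.9 CPM in HSF2oe control cells and 22.2 and 22.7 CPM in HSF2oe cells with TGF-β1. Its difference was 0.91 ± 0.18. MCM2 and MCM3 belong to the MCM ring. MCM3 went from 139 and 128 CPM to 64.7 and 59.8 CPM in Mock cells, and from 152 and 151 CPM to 113 and 108 CPM in HSF2oe cells. The 2 Mock TGF-β1 libraries were again the lowest of the 8. FEN1, the nuclease that trims flaps of lagging-strand DNA, went from 94.3 and 83.1 CPM to 50.5 and 46.6 CPM in Mock cells, and from 106 and 111 CPM to 96.5 and 96.3 CPM in HSF2oe cells. Its fall was called in Mock cells (-0.87 ± 0.10, adjusted p = 7.82e-05), and its change in HSF2oe cells was -0.17 ± 0.10 (adjusted p = 0.381).

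CCNE2, which encodes cyclin E2, a partner of CDK2 at the entry into S phase, had the largest positive value among the 10 genes of lowest p, 1.63 ± 0.34. It stood at 10.2 and 7.41 CPM in Mock control libraries against 2.15 and 1.87 CPM with TGF-β1, and at 15.4 and 11.8 CPM in HSF2oe control libraries against 11.3 and 7.8 CPM with TGF-β1. Its treatments did not overlap in either background, though in HSF2oe cells the nearest libraries lay within 1 CPM of each other. About 37.1% of its exonic length is shared with other annotated genes, and counting ignored strand, so part of its reads could belong elsewhere. FAM111B, a serine protease, went from 14.2 and 11.6 CPM to 2.47 and 2.26 CPM in Mock cells and from 22.4 and 20.3 CPM to 12.8 and 9.76 CPM in HSF2oe cells, and it fell in both (adjusted p = 4.99e-06 and 0.00217). The remaining 4 of the 10 positive genes were FANCI, of the Fanconi pathway of crosslink repair, MCM2, with 23.6% of its exonic length shared, FBXO5, an inhibitor of the anaphase-promoting complex, and LMNB1, the nuclear lamina protein lamin B1. Their differences lay between 0.68 and 0.81, with adjusted p of 0.268 for each.

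**Figure D2:**
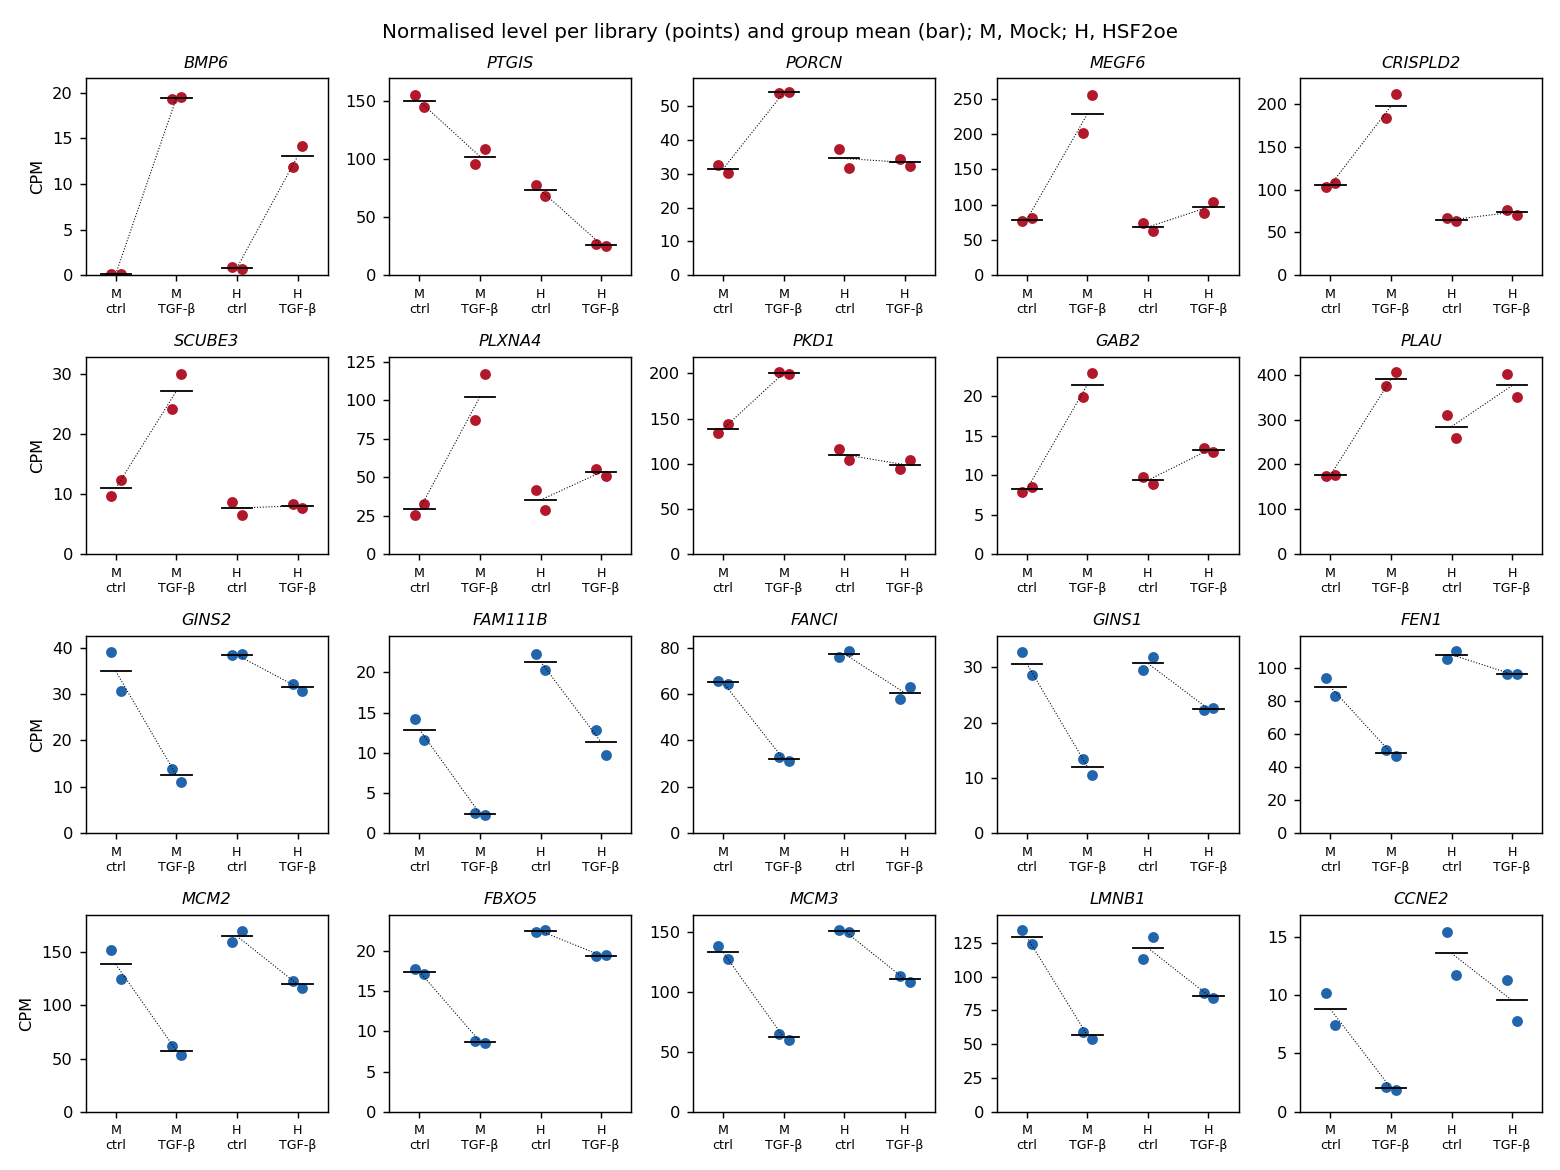
Level in each library (CPM, points, linear axis from 0) and group mean (bar) for the 10 genes of lowest p with a negative difference (red) and the 10 with a positive difference (blue), in Mock (M) and HSF2oe (H) cells. In the blue panels the Mock TGF-β1 libraries lie lowest, and in the red panels other than PTGIS the rise with TGF-β1 is steeper in Mock cells, as for PORCN from about 31 to 54 CPM in Mock cells and near 34 CPM in HSF2oe cells with and without TGF-β1.

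A list of 54 genes of the G1-S transition and DNA replication, all of which were tested, held 52 positive differences and 2 negative ones, CCNE1 (-0.30 ± 0.23) and POLE2 (-0.02 ± 0.35). Members of this and the other lists were chosen with earlier results of these data known. Their counts therefore describe these libraries and are no independent test. At an unadjusted p under 0.05 there were 43 positive and 0 negative members, beside 2.95% and 3.15% of all genes. The median difference of the list was 0.57, and that of all genes 0.0002. TGF-β1 lowered 49 of the 54 in Mock cells (6.5% of all genes tested fell there) and 13 in HSF2oe cells (3.82% of all genes). The median response was -0.87 in Mock and -0.33 in HSF2oe cells. The same pattern read the other way: HSF2oe exceeded Mock for 11 members in control medium (4.88% of all genes) and for 49 with TGF-β1 (9.6% of all genes), sharing the same 8 libraries. The list covers origin licensing (ORC6, 0.72 ± 0.18), the helicase subunit CDC45 (0.88 ± 0.20), nucleotide supply (TYMS, 0.89 ± 0.19, and RRM2, 0.79 ± 0.20), the sliding clamp PCNA (0.61 ± 0.14) and the checkpoint mediator CLSPN (0.64 ± 0.14).

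These counts moved with single libraries. The 43 became 25 without the second Mock TGF-β1 library and 27 without the first Mock control library. The 13 falls in HSF2oe cells became 34 with library totals as the only scaling. They became 8 and 9 without the second or the first Mock control library, and 1 to 6 when any of the 4 HSF2oe libraries was left out. The list median stayed between 0.43 and 0.71 over all 16 alternatives.

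Genes of the G1-S transition are textbook targets of the E2F transcription factors. RefSeq promoter windows on GRCh38.p14 were available for 46 of the 54 genes (59 windows), and the 250 bases before each start were searched on both strands for TTTCCCGC, TTTCGCGC, TTTGCCGC and TTTGGCGC. A match was found in 33.9% of those windows, in 6.9% of the windows of the G2-M list, in 0% of the windows of the extracellular matrix list and in 4.04% of the windows of all genes tested. The stretches below are the matched letters, in capitals, with up to 10 bases on each side, 5′ to 3′ on the strand of the gene, for 8 members with an unadjusted p under 0.05. They are shown because the G1-S list had the highest median difference of the lists of at least 10 genes.
GINS2, chr16:85688968-85688995, minus strand: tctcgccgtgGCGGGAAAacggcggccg
MCM3, chr6:52284899-52284926, minus strand: ggatggtacgTTTCCCGCcaccgcgggg
TYMS, chr18:657604-657631, plus strand: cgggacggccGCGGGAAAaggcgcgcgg
PCNA, chr20:5126664-5126691, minus strand: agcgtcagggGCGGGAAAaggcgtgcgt
LIG1, chr19:48170441-48170468, minus strand: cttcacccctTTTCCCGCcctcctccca
RFC3, chr13:33818084-33818111, plus strand: tttggagctcGCGGGAAAacttgtctct
CDT1, chr16:88803744-88803771, plus strand: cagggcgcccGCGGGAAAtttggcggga
POLA2, chr11:65261899-65261926, plus strand: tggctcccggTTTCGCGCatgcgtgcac
GCGGGAAA is TTTCCCGC read on the other strand, so GINS2, TYMS, PCNA, RFC3 and CDT1 carry it in the reverse sense to MCM3 and LIG1. Members with a match did not have larger differences: the median was 0.58 for the 19 genes with a match and 0.58 for the 27 without one. In the promoter of MCM6, matches on opposite strands overlap each other. A match is a string of letters and not a measured binding site. Heat shock element pairs, searched as TTCNNGAA and GAANNTTC, were found in 5.08% of the windows of the G1-S list, in 13.8% of those of the G2-M list and in 8.99% of those of all genes tested.

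Genes of G2 and mitosis leaned the same way by smaller amounts. Of 53 tested, 53 had a positive difference, 22 had an unadjusted p under 0.05 (2.95% of all genes were positive at that p), and the median was 0.32. TGF-β1 lowered 50 of them in Mock cells (6.5% of all genes) and 15 in HSF2oe cells (3.82% of all genes), with median responses of -0.64 and -0.30. The 50 became 53 with library totals as the only scaling, and fewer whichever Mock library was left out. The 53 positive differences became 49 without the second Mock control library, the lowest count among the alternatives. KIF15, a spindle motor, had the smallest p: it stood at 35.4 and 40.3 CPM in Mock control cells and 16.8 and 17.7 CPM with TGF-β1, and at 39.2 and 42.4 CPM in HSF2oe control cells and 28.6 and 32.1 CPM with TGF-β1 (difference 0.70 ± 0.16, adjusted p = 0.326). CDK1, the mitotic kinase, had a difference of 0.53 ± 0.17 and AURKB of 0.53 ± 0.17. MKI67, the common proliferation marker, fell in both backgrounds, by 0.84 ± 0.15 in Mock and by 0.70 ± 0.15 in HSF2oe cells, and its difference of 0.15 ± 0.21 turned negative without the second HSF2oe TGF-β1 library (-0.06). The 15 falls in HSF2oe cells became 41 with library totals as the only scaling and 3 to 7 when any of the 4 HSF2oe libraries was left out. The 22 became 14 without the second Mock TGF-β1 library or without the first HSF2oe control library, and 34 with library totals.

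**Figure D3:**
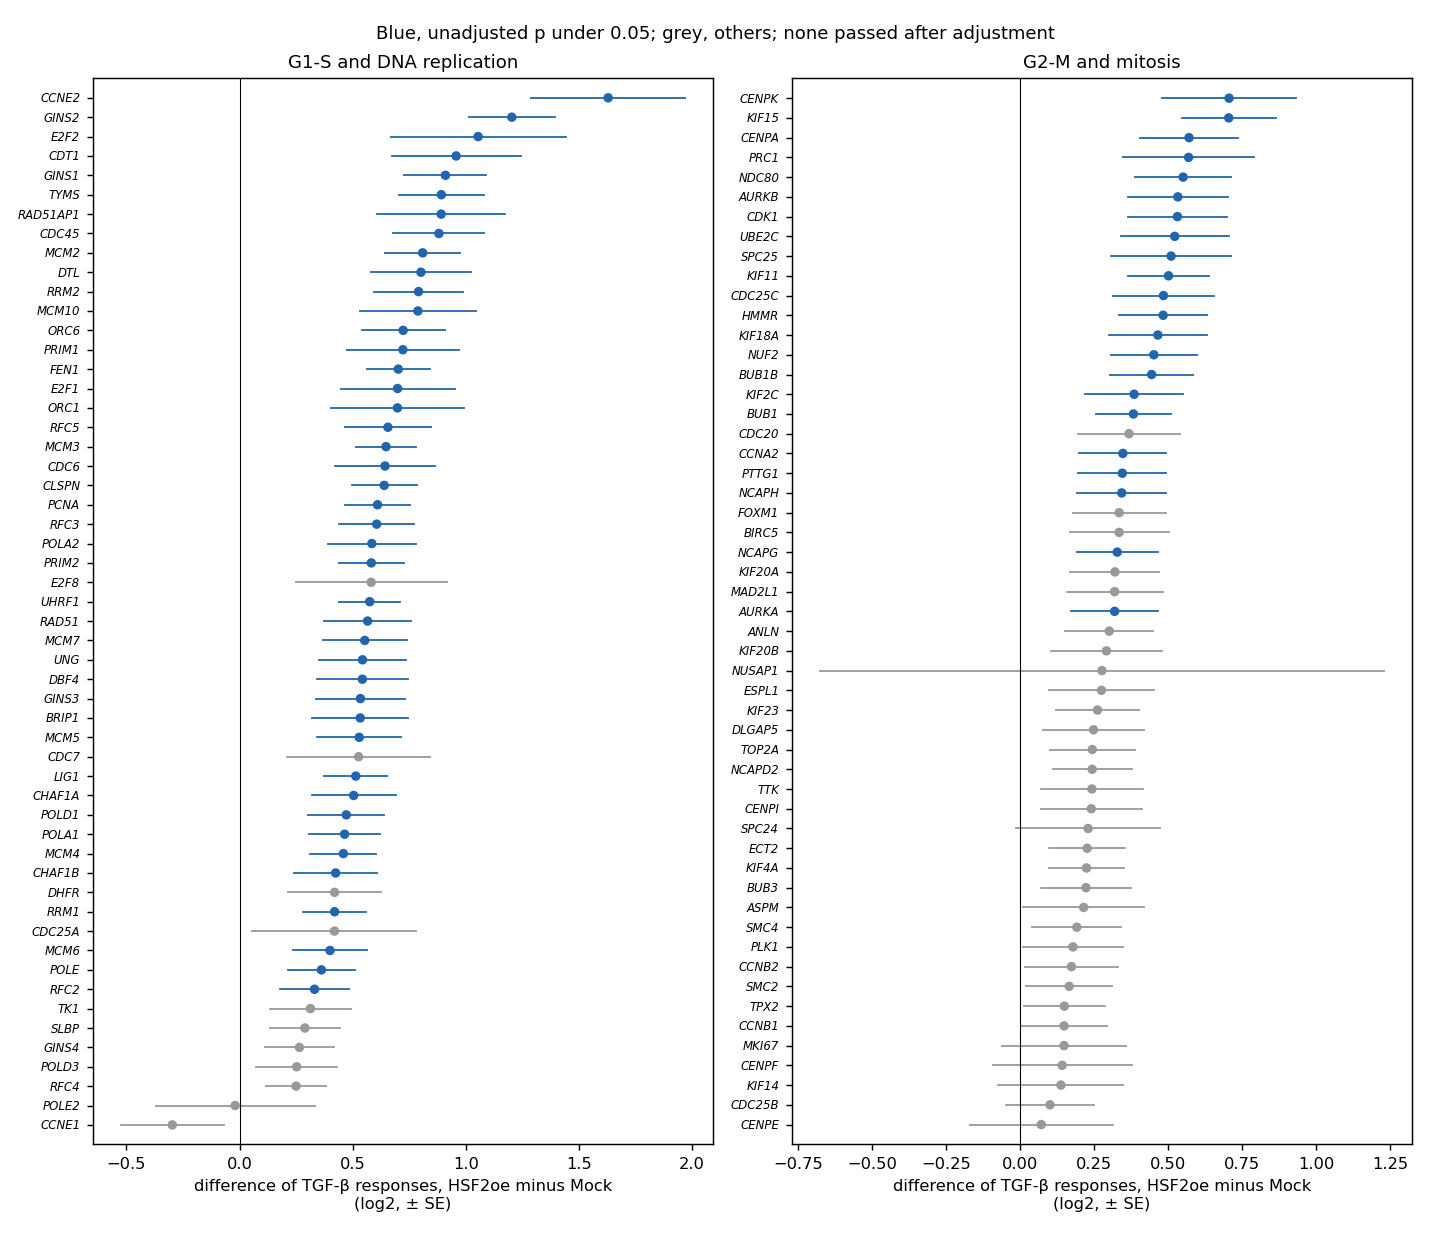
Difference of TGF-β1 responses, HSF2oe minus Mock (log2, point, with ± 1 SE as a line), for the 54 G1-S and replication genes and the 53 G2-M genes, blue where the unadjusted p was under 0.05. Points to the right of 0 had the higher response in HSF2oe cells, which for genes that fell is a smaller fall; 52 of 54 and 53 of 53 lie there.

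On the negative side, BMP6, a ligand of the BMP branch of the same receptor family, had the smallest p of all genes. It stood at 0.15 and 0.14 CPM in Mock control libraries, from 4 and 5 read pairs, and at 19.3 and 19.6 CPM in Mock TGF-β1 libraries. In HSF2oe cells it stood at 0.9 and 0.71 CPM without TGF-β1 and at 11.9 and 14.1 CPM with it. BMP6 rose in both backgrounds, by 7.02 ± 0.26 and by 4.0 ± 0.20 on the log2 scale, and the difference was -3.01 ± 0.41 (adjusted p = 0.0873 in edgeR). HSF2oe exceeded Mock in control medium (2.43, adjusted p = 0.00208) and lay below it with TGF-β1 (-0.58, adjusted p = 0.0148), so the smaller fold rests on a higher start as well as on a lower end. DESeq2 called it with an adjusted p of 0.000941, and its value ran from -3.17 to -2.13 over the alternatives in which it was tested. The 250 bases before its RefSeq start, chr6:7725849-7726098 on the plus strand of GRCh38.p14, are shown because this promoter precedes the gene with the steepest rise of the named genes in Mock cells; they hold none of the motifs searched, the SMAD palindrome GTCTAGAC included, which occurs in 0.124% of the windows of all genes tested.
BMP6 promoter: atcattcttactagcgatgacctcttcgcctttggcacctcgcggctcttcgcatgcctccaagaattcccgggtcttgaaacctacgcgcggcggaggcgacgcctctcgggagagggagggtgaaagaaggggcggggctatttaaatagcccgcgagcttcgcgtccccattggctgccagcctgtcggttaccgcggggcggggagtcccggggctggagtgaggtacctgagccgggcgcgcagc

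PORCN, the acyltransferase that lipid-modifies Wnt proteins, rose in Mock cells and had no called change in HSF2oe cells. It stood at 32.6 and 30.3 CPM in Mock control libraries and at 54 and 54.3 CPM with TGF-β1, against 37.4 and 31.8 CPM in HSF2oe control libraries and 34.5 and 32.3 CPM with TGF-β1. Only the Mock TGF-β1 libraries were high. The rise in Mock cells passed (0.78 ± 0.11, adjusted p = 0.000264), the change in HSF2oe cells was -0.05 ± 0.11, and the difference was -0.83 ± 0.15 (adjusted p = 0.24). SCUBE3, a secreted EGF-repeat glycoprotein, had the same layout: 9.63 and 12.4 CPM in Mock control and 24.3 and 30.1 CPM in Mock TGF-β1 libraries, with all 4 HSF2oe libraries between 6.57 and 8.77 CPM. Its difference was -1.23 ± 0.25 (adjusted p = 0.268).

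MEGF6, a secreted protein with EGF repeats, rose in both backgrounds but by different amounts, from 76.7 and 80.8 CPM to 201 and 256 CPM in Mock cells and from 74.4 and 61.9 CPM to 88.6 and 104 CPM in HSF2oe cells. The difference was -1.03 ± 0.19 (adjusted p = 0.24). PLXNA4, a receptor for semaphorins, stood at 25.6 and 32.5 CPM and then 87.3 and 117 CPM in Mock cells, and at 41.5 and 28.7 CPM and then 55.5 and 51 CPM in HSF2oe cells, with a difference of -1.21 ± 0.25. CRISPLD2, a secreted protein of the matrix, rose in Mock cells from 103 and 107 CPM to 184 and 211 CPM, and its HSF2oe libraries lay between 62.9 and 76.7 CPM. PKD1, which encodes polycystin-1, rose in Mock cells (0.53 ± 0.10, adjusted p = 0.00253) and had -0.15 ± 0.10 in HSF2oe cells (adjusted p = 0.443). The docking adaptor GAB2 rose in both, by 1.39 ± 0.13 and by 0.50 ± 0.13.

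PTGIS, prostacyclin synthase, was the 1 gene of the 20 with a larger response in HSF2oe cells. It fell with TGF-β1 from 155 and 145 CPM to 95.9 and 108 CPM in Mock cells, and from 78 and 68.2 CPM to 27.2 and 25.5 CPM in HSF2oe cells. The groups did not overlap, and HSF2oe lay below Mock in either medium. The falls were 0.55 ± 0.10 and 1.47 ± 0.11 in size, and the difference was -0.92 ± 0.15 (adjusted p = 0.165).

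All 20 genes kept 1 sign in each of the 16 ways of taking a single library per group, which 19% of all genes tested did, and in each alternative in which they were tested. They were picked for low p from these same libraries, so this describes them and is no further support. DESeq2 called 18 of the 20, leaving out GAB2 and FBXO5, with adjusted p from 0.000821 to 0.0288 for the 18.

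Genes of the extracellular matrix and of collagen crosslinking were mostly negative: 47 of 51 tested, beside 8000 of all 16008 genes. The 47 became 37 without the first Mock control library, 38 without the second Mock TGF-β1 library and 41 with library totals as the only scaling. The median difference was -0.19, with median responses of 0.57 in Mock and 0.32 in HSF2oe cells. Of the 31 responsive members, 25 had the smaller response in HSF2oe cells, beside 2183 of 3228 responsive genes in all. At an unadjusted p under 0.05 there were 3 negative and 0 positive members, beside 3.15% and 2.95% of all genes. The 3 became 11 without a low-count filter, 0 with library totals as the only scaling or without the first Mock control library, 1 without the second Mock TGF-β1 library, and 6 or 7 without the second Mock control, the first Mock TGF-β1, the second HSF2oe control or the first HSF2oe TGF-β1 library. TGF-β1 raised 28 members in Mock cells (7.32% of all genes rose there) and 22 in HSF2oe cells (4.45% of all genes). In the main test the 3 were FBN1, which builds microfibrils, COL7A1, the anchoring fibril collagen, and MATN2, a matrilin. FBN1 went from 1321 and 1495 CPM to 2607 and 2972 CPM in Mock cells and from 1282 and 1067 CPM to 1868 and 1569 CPM in HSF2oe cells (difference -0.44 ± 0.19, adjusted p = 0.805). FN1, fibronectin, rose in both, by 0.87 ± 0.14 and 0.57 ± 0.14, with a difference of -0.30 ± 0.19 that was -0.17 without the first Mock control library, and COL1A1 rose by 1.19 and 1.08. THBS1, a matrix protein that can activate latent TGF-β, leaned the other way, with responses of 0.90 in Mock and 1.31 in HSF2oe cells (difference 0.41 ± 0.35). The 28 rises in Mock cells became 18 without the first Mock control library, and the 22 in HSF2oe cells became 14 without the first HSF2oe control or the first HSF2oe TGF-β1 library and 15 with library totals as the only scaling or without the second HSF2oe control library. The list median ran from -0.31 to -0.09 over the alternatives.

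Matrix proteases and their inhibitors leaned likewise, with 31 of 36 negative, beside 8000 of all 16008 genes, and a median of -0.25. Of the 18 responsive members, 16 had the smaller response in HSF2oe cells, beside 2183 of 3228 responsive genes in all. At an unadjusted p under 0.05 there were 4 negative and 0 positive members, beside 3.15% and 2.95% of all genes. The 4 became 9 without the first HSF2oe TGF-β1 library, 7 without the first Mock TGF-β1 or the second HSF2oe control library, 6 without the second Mock control library and 8 without a low-count filter. That count was 3 with DESeq2's Wald test, and it also fell when some of the other libraries were left out. TGF-β1 raised 16 members in Mock cells (7.32% of all genes) and 10 in HSF2oe cells (4.45% of all genes). In the main test the plasminogen system supplied 3 of the 4. PLAU, urokinase, went from 175 and 177 CPM to 374 and 406 CPM in Mock cells and from 310 and 259 CPM to 401 and 351 CPM in HSF2oe cells. HSF2oe exceeded Mock by 0.69 in control medium (adjusted p = 0.00223), and the gap was -0.05 with TGF-β1 (adjusted p = 0.777). The difference was -0.75 ± 0.16 (adjusted p = 0.268). About 31% of its exonic length is shared with other annotated genes. PLAT, tissue plasminogen activator, had 146 and 136 CPM and then 212 and 205 CPM in Mock cells, and 287 and 205 CPM and then 260 and 188 CPM in HSF2oe cells, where the treatments overlapped (difference -0.70 ± 0.23, or -0.43 without the first HSF2oe control library). SERPINE2 rose in both backgrounds, by 2.42 and 1.94, with a difference of -0.48 ± 0.14. The list median of the proteases moved to -0.08 without the second Mock TGF-β1 library. The 16 rises in Mock cells became 10 without that library, and the 10 in HSF2oe cells became 6 without the second HSF2oe control or the first HSF2oe TGF-β1 library.

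**Figure D4:**
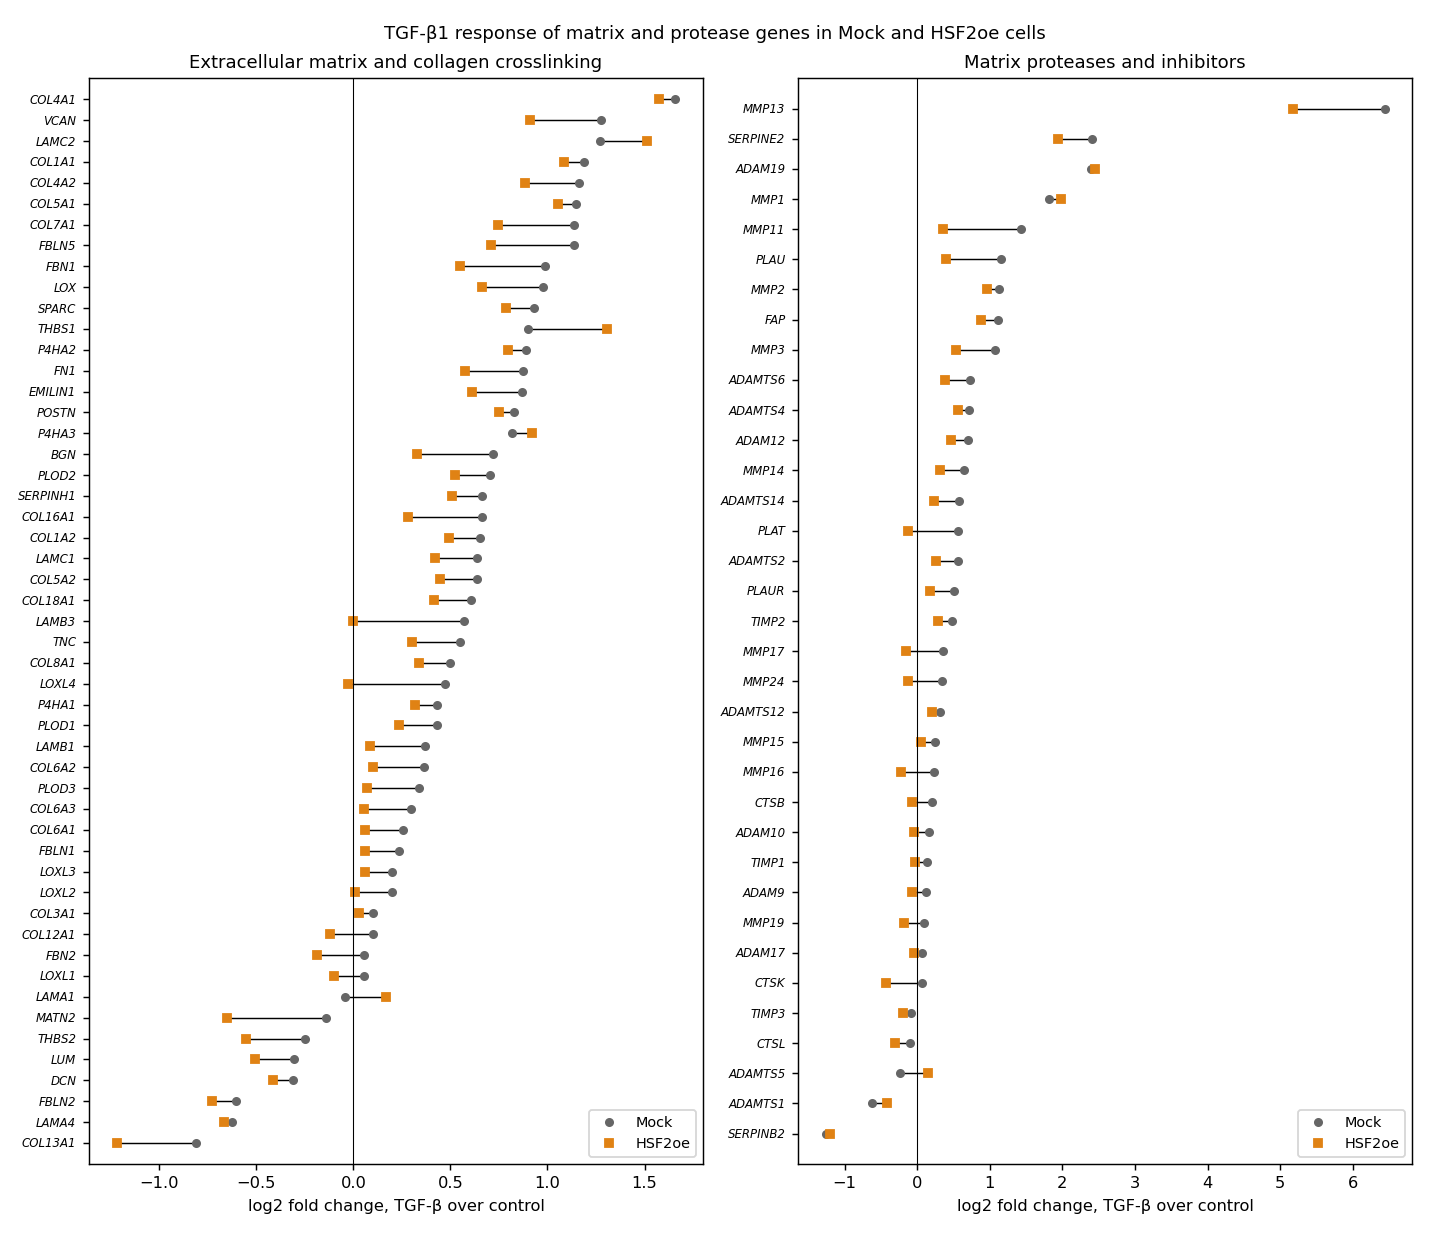
Response to TGF-β1 (log2 fold change over control) in Mock (grey circles) and HSF2oe cells (orange squares) for 51 extracellular matrix genes and 35 of the 36 matrix proteases and inhibitors, ordered by the response in Mock cells. The square lies left of the circle for 47 of 51 and 30 of 35 genes shown.

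The core of the SMAD response held both signs, with 27 of 42 target genes negative and 15 positive. Of the 35 responsive ones, 25 had the smaller response in HSF2oe cells, beside 2183 of 3228 responsive genes in all. Of 42 SMAD target genes, several of which were listed because earlier results of these libraries showed them rising, 31 rose in Mock cells (7.32% of all genes) and 28 in HSF2oe cells (4.45% of all genes), and the median difference was -0.10, or 0.0005 with library totals as the only scaling. At an unadjusted p under 0.05 there were 9 negative and 4 positive members, beside 3.15% and 2.95% of all genes. Without a low-count filter they were 12 and 7. They became 5 and 3 without the first Mock control library, 6 and 2 without the second Mock TGF-β1 library, and 6 and 1 without the first HSF2oe control library. FSTL3, a binder of activins, was among the negative ones: 97.4 and 97.3 CPM and then 306 and 306 CPM in Mock cells, against 87.3 and 80.1 CPM and then 195 and 190 CPM in HSF2oe cells (difference -0.45 ± 0.13, adjusted p = 0.646). LTBP3, which stores latent TGF-β in the matrix, went from 138 and 155 CPM to 213 and 239 CPM in Mock cells, while all 4 HSF2oe libraries lay between 118 and 127 CPM (difference -0.56 ± 0.14, adjusted p = 0.486). CCN2, a secreted matricellular protein that is also a YAP target, was positive: 1267 and 1518 CPM and then 5781 and 5761 CPM in Mock cells, against 844 and 1163 CPM and then 5987 and 5758 CPM in HSF2oe cells. Its TGF-β1 libraries overlapped between the backgrounds, and its difference was 0.50 ± 0.21, or 0.30 without the first HSF2oe control library and 0.75 without the second. DACT1 (0.84 ± 0.28) and NEDD9 (0.73 ± 0.27) were also positive, and ID1, which TGF-β1 lowered in Mock cells, had 0.64 ± 0.30.

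The feedback inhibitor SMAD7 rose in both backgrounds, by 0.87 ± 0.14 and 0.48 ± 0.14, with a difference of -0.39 ± 0.20 (adjusted p = 0.835) that was -0.13 without the first HSF2oe control library and -0.60 without the second. SNAI1, the transcription factor of the epithelial-mesenchymal transition, rose by 2.49 ± 0.33 and 2.50 ± 0.36, and CDH2, N-cadherin, by 1.18 ± 0.11 and 1.07 ± 0.11. Their differences were 0.01 ± 0.33 and -0.11 ± 0.15, and both changed sign when single libraries were left out, CDH2 to 0.0005 without the second HSF2oe TGF-β1 library and SNAI1 to as low as -0.20 without the first Mock TGF-β1 library. ZEB1 rose in Mock cells (0.60, adjusted p = 0.00186) and had 0.17 in HSF2oe cells (adjusted p = 0.431), with a difference of -0.44 ± 0.15 (adjusted p = 0.729). Among 39 ligands, receptors and SMADs, 27 were negative, with a median of -0.17 that moved to -0.05 without the first Mock control library and to -0.25 without the first Mock TGF-β1 library. GDF6, a BMP-like ligand, had 25.7 and 23.6 CPM and then 95.5 and 91.3 CPM in Mock cells, and 15 and 18.4 CPM and then 43.1 and 48 CPM in HSF2oe cells (-0.47 ± 0.16). ACVR1, a type I receptor, had -0.44 ± 0.16.

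Adhesion genes had a mixed layout. Of 17 integrins, 14 were negative, with a median of -0.28 that ranged from -0.48 without the second HSF2oe control library to -0.06 without the first. ITGA11, a collagen receptor subunit, stood at 726 and 858 CPM and then 1271 and 1481 CPM in Mock cells, and at 508 and 482 CPM and then 538 and 569 CPM in HSF2oe cells. Its rise was called in Mock cells (0.80, adjusted p = 0.000432) and its change in HSF2oe cells was 0.16 (adjusted p = 0.497), with a difference of -0.63 ± 0.16 (adjusted p = 0.495). Of 33 genes of the cadherin superfamily, 22 were negative, and their median of -0.18 became 0.01 without the first Mock control library. PCDH7, a protocadherin, fell in both, by 0.31 and by 0.90, a larger fall in HSF2oe cells (difference -0.59 ± 0.14, adjusted p = 0.388). CELSR1, of the planar polarity pathway, rose in both, by 1.08 and by 0.43. Actin and contractile genes, 44 tested, had a median of 0.02, which kept its sign in 11 of 16 alternatives and was -0.07 without the second HSF2oe TGF-β1 library.

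Chaperones, the usual targets of heat shock factors, gave small values. Of 46 heat shock proteins and cochaperones, 34 were positive, beside 8008 of the 16008 genes tested, with a median of 0.11. At an unadjusted p under 0.05 there were 2 positive and 0 negative members, beside 2.95% and 3.15% of all genes. The 2 were HSPA1L, below 2 CPM in every library, and PTGES3, a cochaperone of HSP90, at 0.30 ± 0.14. They became 0 with DESeq2's Wald test and 9 with library totals as the only scaling. HSF2oe exceeded Mock for 5 members in control medium (4.88% of all genes) and for 18 with TGF-β1 (9.6%). It lay below Mock for 2 and 4 (7.22% and 11.9% of all genes). HSPA1A, the inducible HSP70, fell in Mock cells (-0.35 ± 0.11, adjusted p = 0.0441) and had -0.08 ± 0.10 in HSF2oe cells, with a difference of 0.27 ± 0.15. HSF1, the main factor of the heat shock response, stayed between 176 and 200 CPM in all 8 libraries. With library totals as the only scaling the median of all genes rose to 0.10, and that of the chaperone list to 0.22.

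Other lists had medians near that of all genes or medians that moved with a library, though in some of them most members shared a sign. Interferon-stimulated genes had a median of 0.06 that ran from -0.20 to 0.19 when either HSF2oe TGF-β1 library was left out. IFIT1 was their largest positive value: it stood at 2.51 and 5.02 CPM and then 0.85 and 0.44 CPM in Mock cells, and at 7.61 and 7.25 CPM and then 7.25 and 3.54 CPM in HSF2oe cells (2.17 ± 0.60, adjusted p = 0.615). Genes of AP-1, EGR and MAPK feedback had a median of -0.11, which became 0.04 without the first HSF2oe control library. Values of the 13 mitochondrially encoded genes turned on single libraries. With all 8 libraries 13 were negative, with a median of -0.43 and 0 at an unadjusted p under 0.05. Without the first HSF2oe TGF-β1 library 13 were negative at that p and the median was -0.80, and without the second 7 were negative and 6 positive, with a median of -0.09. Without a low-count filter 11 were negative at an unadjusted p under 0.05. By a chi-square on raw counts, which grows with read depth, the HSF2oe TGF-β1 pair differed most among the replicate pairs. Its value was 26.8 per degree of freedom against 12.5 to 18.5 in the other groups. In a principal component analysis of log2 CPM, that pair lay farthest apart on the first component (36.9% of the variance, 23.8 and 7.3). On the third component (10.5%) the Mock TGF-β1 pair lay farthest apart, at -37.6 and 25.3. The part of these spreads in the mitochondrial values was not tested. Of 52 ribosomal protein genes 49 were positive, beside 8008 of the 16008 genes tested, and 0 were past an unadjusted p of 0.05. Their median of 0.09 ran from 0.03 to 0.20 over the alternatives. Of 38 genes of the unfolded protein and amino acid stress response, 30 were negative, beside 8000 of all genes. Their median was -0.07, or 0.04 with library totals as the only scaling.

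**Figure D5:**
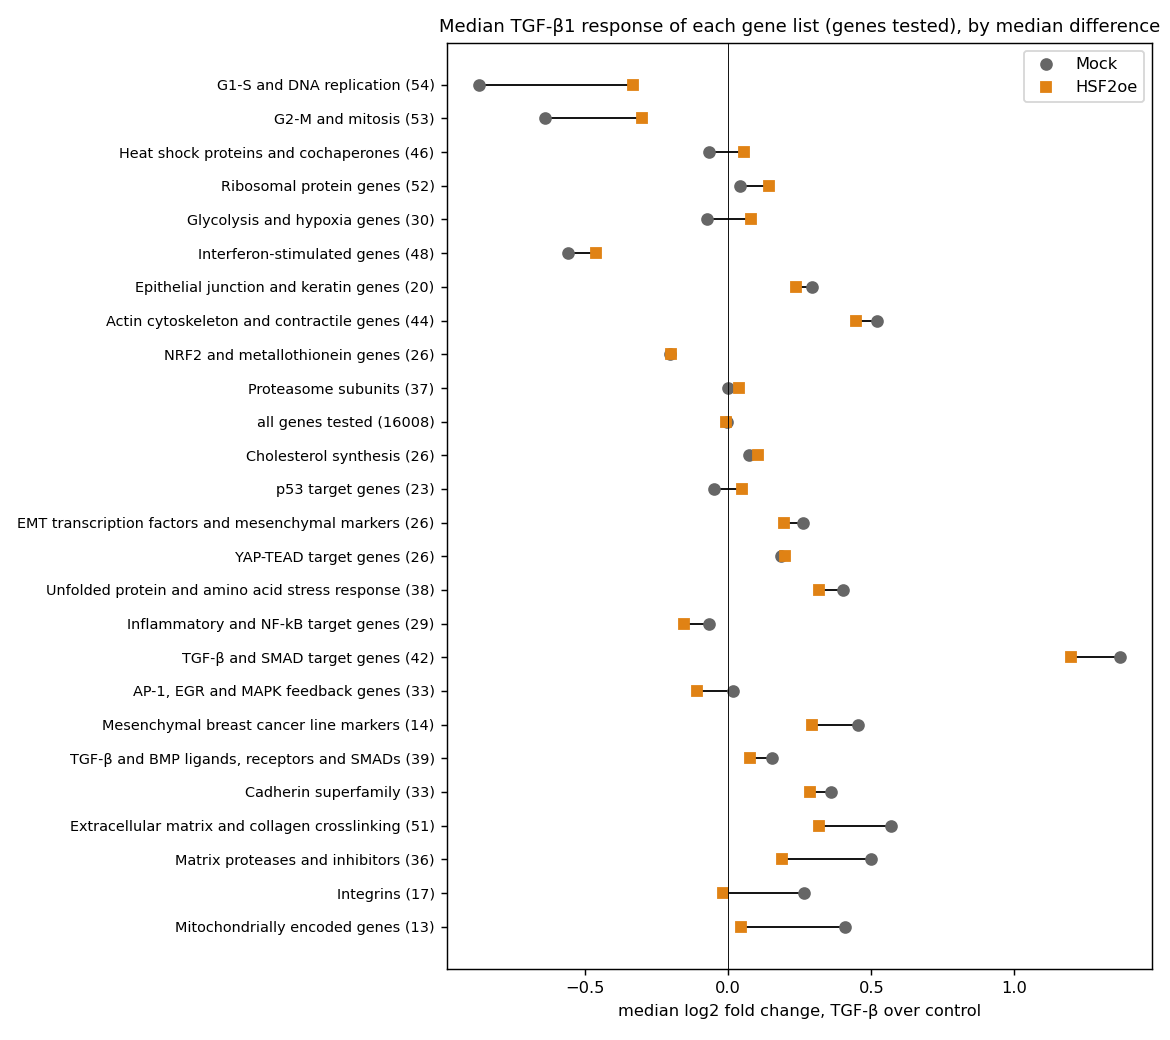
Median response to TGF-β1 (log2 fold change over control) of each list of at least 10 tested genes in Mock (grey circles) and HSF2oe cells (orange squares), ordered by the median difference. The G1-S list (-0.87 and -0.33) and the G2-M list (-0.64 and -0.30) lie farthest below 0 in Mock cells and nearer to 0 in HSF2oe cells. Matrix genes (0.57 and 0.32) and proteases (0.50 and 0.19) lie above 0 in both and nearer to it in HSF2oe cells. Integrins go from 0.27 in Mock cells to just below 0 in HSF2oe cells (-0.02).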

How the data were processed

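PolyA RNA was read from 8 libraries in 4 groups of 2. The authors counted read pairs per gene with featureCounts 2.0.1 on GENCODE 38, without a strand option per the file headers although the kit marks strand, after STAR 2.7.9a alignment to GRCh38 per the submitters' processing notes. The deposited table of log2 CPM, whose scaling is not given in the sources used here, lay within 0.0288 of TMM log2 CPM and served as an alternative.

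Counts were fitted in edgeR 4.0.16 (R 4.3.3) with 1 mean per group, TMM factors, filterByExpr by group and quasi-likelihood tests, Benjamini-Hochberg adjustment over 16008 genes, threshold 0.05. There were 4 residual degrees of freedom, and the common biological coefficient of variation was 9.91%. A count of 3 read pairs is 0.0851 to 0.195 CPM. The test was tried on simulated data. Alternatives used DESeq2 1.42.0 and limma 3.58.1.

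Genes named were 9 set in advance by function, then up to 15 per direction among those that passed, or the 10 of lowest p at a mean log2 CPM of at least 0 where fewer than 10 passed, and up to 3 per list. A few of these genes are not reported here. DACT1, NEDD9, ID1, THBS1, COL1A1, CCNE1, POLE2, CDK1, AURKB and the further G1-S members were chosen after their values were seen. Members and lists (29) were chosen with earlier results of these data known.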

Additional observations from a re-analysis of the deposited data

How the results depend on the processing

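The count of genes past the threshold was 0 with DESeq2 size factors, library totals, a stricter low-count filter, limma-trend on the deposited values (849 genes at an unadjusted p under 0.05), libraries thinned to the lowest total, and any library left out (0 to 0, with 677 to 1249 genes at an unadjusted p under 0.05). It was 83 without the low-count filter (46 positive), 23 with DESeq2's Wald test (12 positive) and 78 with a replicate block (42 positive); the cause was not tested. The 83 and the 78 each held all 20 named genes. With the block TGF-β1 lowered 28 of the 54 G1-S genes and 32 of the 53 G2-M genes in HSF2oe cells, against 13 and 15, and 13 matrix, 10 protease and 7 mitochondrially encoded genes were negative at an unadjusted p under 0.05, against 3, 4 and 0. The share of responsive genes with a smaller response in HSF2oe cells was 73.4% with library totals, which shifted the median of all genes by 0.1002, and 65.8% with the replicate block. Without a library it ran from 56.1% to 73.1%, with 59.4% lacking the second HSF2oe control and 72.9% the second Mock control library. It stayed within 66% to 67.9% under the other alternatives. Same-numbered libraries correlated at 0.05 to 0.163 in their deviations from group means, over 6 pairs of groups, and the labels tie no shared day or batch to a number, so the block is given here only. Leaving out a library leaves a group with 1, which is then assumed to vary like the others. With 2 libraries per group and a median SE of 0.242 at a mean log2 CPM of 2 to 4, small differences of single genes were not detectable, and genes under 1 CPM least of all.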
